A study of Homo sapiens with 6 samples.

Results

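A set of 10 genes that mark or drive the mesenchymal state was followed in U2OS cells after siRNA against ALKBH5. They are 6 transcription factors (SNAI1, SNAI2, TWIST1, TWIST2, ZEB1 and ZEB2), 3 cadherins (CDH1, CDH2 and CDH11) and the intermediate filament gene VIM. The members were taken by gene symbol, and all 10 were found among the 23228 gene symbols of the count table. U2OS is an established human osteosarcoma line. Its cells received ALKBH5 siRNA (3 libraries) or scrambled siRNA (3 libraries) by lipid transfection and were harvested after 48 hours, and mRNA was read by RNA-seq. All libraries come from this 1 line, and effects of losing ALKBH5 cannot be told apart from other effects of the siRNAs used. The comparison asks how transcript levels differ when ALKBH5, an enzyme that removes the methyl group of N6-methyladenosine from RNA, is depleted.

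In the epithelial-mesenchymal transition, cells give up tight cell-cell junctions and become motile. The zinc finger repressors of the SNAIL family (SNAI1 and SNAI2) and the ZEB family bind E-box motifs in promoters of epithelial genes, of which CDH1 is the best known, while the TWIST proteins are basic helix-loop-helix factors that pair with E proteins. E-cadherin (CDH1) holds epithelial sheets together, N-cadherin (CDH2) and the osteoblast cadherin CDH11 are typical of mesenchymal cells, and vimentin (VIM) is their main intermediate filament. Bone-forming cells are mesenchymal, so an osteosarcoma line starts from the mesenchymal side of this switch.

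Of the 10 genes, 8 had enough reads to be tested. ZEB1, CDH1, CDH2 and CDH11 rose and SNAI2 and VIM fell after ALKBH5 siRNA (adjusted p under 0.05, edgeR quasi-likelihood test). SNAI1 and TWIST2 did not pass the test, and ZEB2 and TWIST1 were too low to be tested. Changes were common in these libraries: 61.6% of the 14504 tested genes passed the same threshold, with 30.8% higher and 30.8% lower, so 6 of 8 lies near the background. The 3 libraries of each group did not overlap for any of the 6, and they overlapped for SNAI1 and TWIST2. Thus 6 of the 8 tested members did not overlap, against 67.4% of all tested genes (33.5% higher and 33.9% lower). This too lies near the background.

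The ALKBH5 transcript itself stood at 19.4, 16.2 and 15.7 CPM (read counts relative to library size, scaled between libraries by TMM) with ALKBH5 siRNA, against 138, 148 and 143 CPM with scrambled siRNA (log2 fold change −3.06, SE 0.10, adjusted p = 1.6e-09). Reads in genes numbered 19748583 to 19919797 with ALKBH5 siRNA and 18817181 to 23410007 with scrambled siRNA, and 3 reads correspond to between 0.125 and 0.158 CPM in a library. Of 13 osteoblast markers 8 were high enough to test, with RUNX2 at 42.0 ± 11.9 CPM with ALKBH5 siRNA and 25.3 ± 4.23 CPM with scrambled siRNA (SD, n = 3 each), and overlapping groups, and IBSP had no read in any library. Of those 8, 2 were higher (RUNX2 and COL1A1) and 3 lower, against 30.8% of all tested genes in each direction. RUNX2 lost its call in the edgeR fit without knockdown replicate 2 (adjusted p = 0.056). COL1A1 was at 2017 CPM with ALKBH5 siRNA and 1526 CPM with scrambled siRNA. SPARC, a bone matrix protein, was at 1428 CPM with ALKBH5 siRNA and 2029.5 CPM with scrambled siRNA. The 12 epithelial markers summed to 626 to 650 CPM with ALKBH5 siRNA and 548 to 642 CPM with scrambled siRNA, most of it from the keratins KRT8 and KRT18, which moved in opposite directions (log2 fold changes −0.45 and 0.71). Of the 8 tested, 3 were higher and 3 lower, against 30.8% of all tested genes in each direction. CDH1 passed the filter on low counts through the knockdown libraries alone, and KRT14 and CLDN7 through the scrambled libraries alone. These genes entered the test because they were higher there. The basal keratin KRT14 had 12, 8 and 1 reads with ALKBH5 siRNA, against 236, 187 and 119 reads with scrambled siRNA. The 8 leukocyte markers summed to 97.2 to 202 CPM with ALKBH5 siRNA and 28.5 to 32.4 CPM with scrambled siRNA, with CD3E at 0 in every library. The higher sum came from LCP1, at 88.7 to 190.4 CPM with ALKBH5 siRNA and 16.1 to 19.6 CPM with scrambled siRNA. Of the 5 leukocyte markers tested, 1 was higher and 2 lower, against 30.8% of all tested genes in each direction. The 9 endothelial markers summed to 10.4 to 10.8 CPM with ALKBH5 siRNA and 13.6 to 15.5 CPM with scrambled siRNA. The part of these markers in the results below was not tested.

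The sequences at the starts of ZEB1 and ZEB2 are shown first, because the reads of these related repressors differed in opposite directions and ZEB1 shares its start region with an antisense gene that also changed. Both are RefSeq promoter windows of build GRCh38.p14, from 250 bases before to 50 bases after a transcript start, 5′ to 3′ on the gene's own strand. Capitals mark CAGGTG or its reverse complement CACCTG, the E-box form that SNAIL and ZEB proteins are known to bind.
ZEB1 (chr10:31318966-31319265, plus strand): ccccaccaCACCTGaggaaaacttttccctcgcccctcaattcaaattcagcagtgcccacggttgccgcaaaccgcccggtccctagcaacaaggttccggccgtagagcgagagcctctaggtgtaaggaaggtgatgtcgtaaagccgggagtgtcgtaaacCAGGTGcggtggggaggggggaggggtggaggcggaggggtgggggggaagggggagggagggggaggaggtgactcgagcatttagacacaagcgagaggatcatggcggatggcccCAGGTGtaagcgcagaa
ZEB2 (chr2:144520070-144520369, minus strand): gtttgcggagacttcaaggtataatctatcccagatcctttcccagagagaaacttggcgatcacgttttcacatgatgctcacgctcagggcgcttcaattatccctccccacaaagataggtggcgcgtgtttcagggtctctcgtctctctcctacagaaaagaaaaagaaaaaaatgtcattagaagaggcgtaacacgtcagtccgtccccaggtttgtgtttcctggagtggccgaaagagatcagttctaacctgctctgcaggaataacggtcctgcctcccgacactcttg
The ZEB1 window held 3 such motifs, with first bases at −242, −85 and 33 relative to the transcript start taken as 0. The ZEB2 window held 0. CAGGTG or CACCTG, read on both strands, was in 20.6% of the 35116 promoter windows of the same length. RefSeq lists 7 start windows for ZEB1. The window shown held the most motifs, 1 other held the motif once, and the rest held 0. Among the rest is chr10:31320304-31320603, which shares 206 bases with another window of ZEB1-AS1. The difference in motifs between ZEB1 and ZEB2 thus depends on the window chosen. A window of the antisense gene ZEB1-AS1 covers 220 of the 300 bases shown for ZEB1, on the opposite strand. Windows were given for 5 of the 10 genes (ZEB1, ZEB2, TWIST2, VIM and CDH2), and none of those of TWIST2, VIM and CDH2 held CAGGTG or CACCTG. A match describes these letters and shows no binding. CDH1, CDH11, SNAI1 and TWIST1 had no window, and SNAI2 is named here without sequence.

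**Figure D1:**
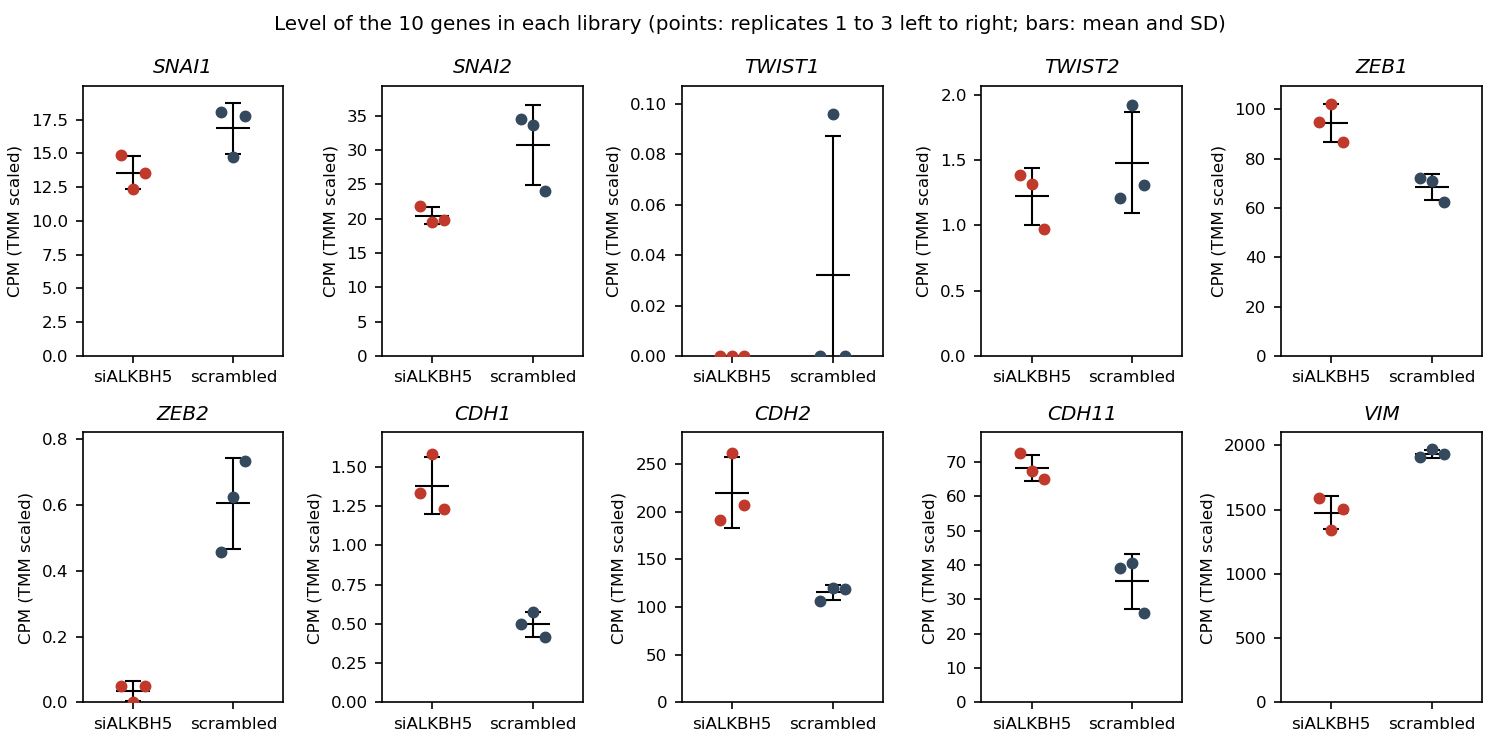
Level of each of the 10 genes in CPM (vertical axes, each from 0) in the 3 libraries with ALKBH5 siRNA (left, red) and the 3 with scrambled siRNA (right, dark), with bars for mean and SD. The groups do not overlap for SNAI2, ZEB1, ZEB2, CDH1, CDH2, CDH11 and VIM, and they overlap for SNAI1 and TWIST2.

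The SNAIL genes were lower or unresolved. SNAI2, which encodes Slug, was at 21.9, 19.5 and 19.9 CPM with ALKBH5 siRNA, against 34.5, 33.6 and 24.0 CPM with scrambled siRNA. The groups did not overlap, and scrambled replicate 3 lay closest to the knockdown libraries. SNAI2 fell by 0.59 on the log2 scale (SE 0.14, adjusted p = 0.0029). Without scrambled replicate 3 its log2 fold change was −0.74 (adjusted p = 0.00025).

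SNAI1, which encodes Snail, the founding repressor of the family, was at 14.8, 12.4 and 13.5 CPM with ALKBH5 siRNA, against 18.1, 14.7 and 17.8 CPM with scrambled siRNA. Scrambled replicate 2 lay just below the highest knockdown library, so the groups overlapped. Its log2 fold change of −0.31 (SE 0.13) missed the threshold (adjusted p = 0.053). Without scrambled replicate 2 the adjusted p was 0.033, and without knockdown replicate 1 it was 0.042, so the call for SNAI1 depends on single libraries. With library totals and no scaling factor SNAI1 passed at −0.38 (adjusted p = 0.026).

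ZEB1, a zinc finger and homeodomain repressor, was at 94.8, 102 and 86.8 CPM with ALKBH5 siRNA, against 72.3, 71.1 and 62.4 CPM with scrambled siRNA. Every knockdown library was above every scrambled library. ZEB1 rose by a log2 fold change of 0.46 (SE 0.09, adjusted p = 0.00094), a 1.38-fold higher level.

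ZEB2, also known as SIP1, was barely read. It had 1, 0 and 1 reads with ALKBH5 siRNA, against 11, 13 and 14 reads with scrambled siRNA. The knockdown libraries were each under the 3 reads taken as the floor, and none overlapped a scrambled library. The ratio of the summed counts, 2 over 38, scaled for library size, was 0.0580 with an exact 95% interval of 0.00678 to 0.224, which covers counting error only. ZEB2 did not pass the filter on low counts and has no place in the main test. In a fit without that filter its adjusted p was 0.00027. In a bulk sample, fewer cells that express a gene and less RNA per cell cannot be told apart.

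ZEB1-AS1, the noncoding gene that runs antisense from the ZEB1 start, rose further than ZEB1. It was at 24.9, 24.3 and 24.8 CPM with ALKBH5 siRNA, against 6.91, 5.96 and 6.70 CPM with scrambled siRNA (log2 fold change 1.92, SE 0.12, adjusted p = 8.1e-08). The 2 genes overlap over 2031 bases on chromosome 10 in RefSeq on GRCh38.p14 (ZEB1 from 31318417 to 31529804 and ZEB1-AS1 from 31307717 to 31320447). The library kit keeps strand, but the strand setting of the counting is not given in the sources used here, so reads of the overlap cannot be assigned to either gene with certainty. How far ZEB1-AS1 reads enter the ZEB1 count was not tested. Of 5 antisense partners of the members looked for, this was the 1 found in the count table.

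The TWIST genes gave little signal. TWIST2 was at 1.38, 1.32 and 0.973 CPM with ALKBH5 siRNA, against 1.21, 1.92 and 1.31 CPM with scrambled siRNA. The groups overlapped and the log2 fold change of −0.27 (SE 0.29) did not pass (adjusted p = 0.45). TWIST1 had no reads in the knockdown libraries and 2 reads in 1 scrambled library, so no difference was detectable at this depth.

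All 3 cadherins rose. CDH2 was at 191, 262 and 206 CPM with ALKBH5 siRNA, against 106, 120.4 and 119 CPM with scrambled siRNA. Its groups were far apart, and knockdown replicate 2 was the highest library. CDH2 rose 1.91-fold (log2 fold change 0.93, SE 0.11, adjusted p = 2.5e-05), and without knockdown replicate 2 the log2 fold change was 0.79.

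CDH11, the cadherin first described in osteoblasts, was at 72.6, 67.3 and 65.1 CPM with ALKBH5 siRNA, against 39.1, 40.5 and 26.1 CPM with scrambled siRNA. The knockdown libraries lay close together, whereas scrambled replicate 3 was below its 2 fellows, as it was for SNAI2. CDH11 rose 1.94-fold (log2 fold change 0.95, SE 0.15, adjusted p = 0.00022), and by 0.77 without scrambled replicate 3.

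CDH1, the epithelial cadherin and classic target of SNAIL and ZEB repression, had 26, 30 and 24 reads with ALKBH5 siRNA, against 12, 12 and 8 reads with scrambled siRNA. In CPM these are 1.33, 1.58 and 1.23 against 0.499, 0.576 and 0.418, without overlap. CDH1 rose 2.74-fold (log2 fold change 1.45, SE 0.31, adjusted p = 0.0015), at a level near the limit of the test in both groups. CDH1 reached the filter's cutoff of 0.504 CPM in all 3 knockdown libraries but in only 2 scrambled libraries, so its place among the tested genes came from the group in which it was higher.

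VIM, by far the most abundant of the 10, was at 1591, 1340.3 and 1502 CPM with ALKBH5 siRNA, against 1908, 1969 and 1930.1 CPM with scrambled siRNA. The scrambled libraries differed little among themselves (coefficient of variation 1.59%), and all 3 knockdown libraries were below them. VIM fell by 0.39 on the log2 scale (SE 0.08, adjusted p = 0.00095), a 1.31-fold lower level.

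**Figure D2:**
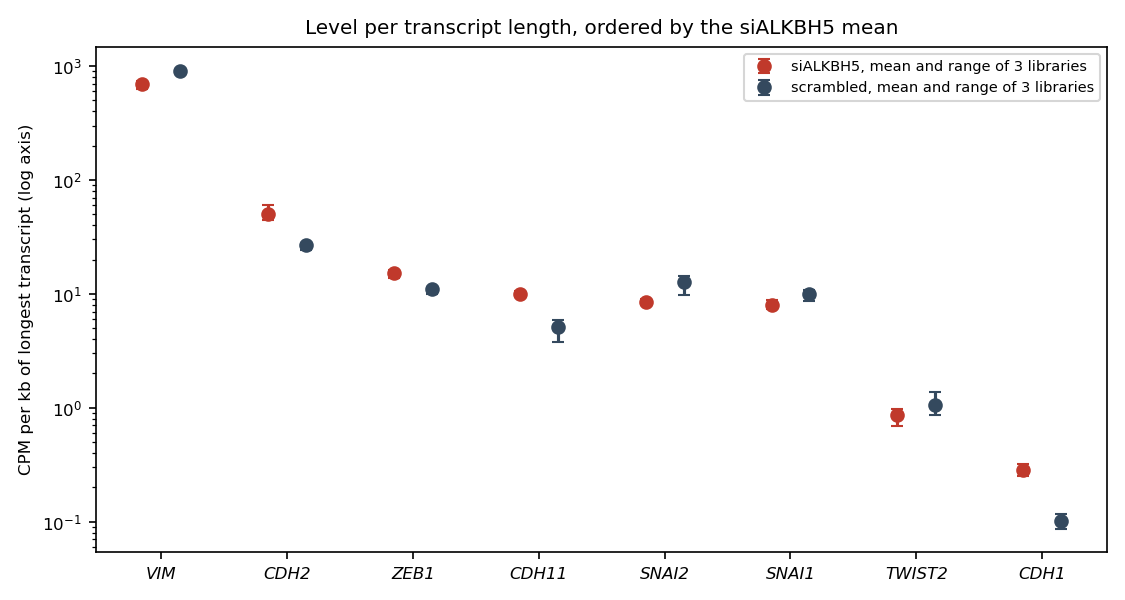
Level in CPM per kilobase of the longest protein-coding transcript (log axis) of 8 of the 10 genes, ordered by the mean with ALKBH5 siRNA (left points, red), with scrambled siRNA beside it (right points, dark). Bars are the range of 3 libraries, and ZEB2 and TWIST1, which had libraries at 0, are not drawn. VIM stands at 692 with ALKBH5 siRNA and 907 with scrambled siRNA, and CDH2 at 50.7 with ALKBH5 siRNA and 26.6 with scrambled siRNA.

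Per transcript length, VIM stood at 692 ± 59.6 CPM per kilobase with ALKBH5 siRNA and 907 ± 14.4 with scrambled siRNA (SD, n = 3 each). CDH2 came second in both groups, with 50.7 ± 8.57 with ALKBH5 siRNA and 26.6 ± 1.83 with scrambled siRNA. Behind it, ZEB1 (15.1 ± 1.23), CDH11 (9.94 ± 0.56), SNAI2 (8.42 ± 0.53) and SNAI1 (8.05 ± 0.74) followed with ALKBH5 siRNA. With scrambled siRNA the order of these 4 was SNAI2 (12.65 ± 2.42), ZEB1 (10.95 ± 0.86), SNAI1 (9.99 ± 1.11) and CDH11 (5.13 ± 1.16). The ranges of SNAI2 and SNAI1 overlapped in both groups, and with scrambled siRNA that of ZEB1 overlapped both. The ranges thus do not separate those neighbours. Whether these levels per kilobase differ within each library was not tested. TWIST2 (0.871 ± 0.16 with ALKBH5 siRNA) and CDH1 (0.282 ± 0.037 with ALKBH5 siRNA, 0.102 ± 0.016 with scrambled siRNA) lay well below. Transcript lengths came from GENCODE 29. With the median transcript length in place of the longest, VIM stood at 1126 with ALKBH5 siRNA and 1475 with scrambled siRNA, CDH2 at 296.8 with ALKBH5 siRNA and 155.6 with scrambled siRNA, and CDH11 at 74.0 with ALKBH5 siRNA and 38.1 with scrambled siRNA. CDH11 then took rank 3 in both groups, and ZEB2 stood above CDH1 with scrambled siRNA. Both the order below CDH2 and the size of the gaps thus depend on the length chosen.

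**Figure D3:**
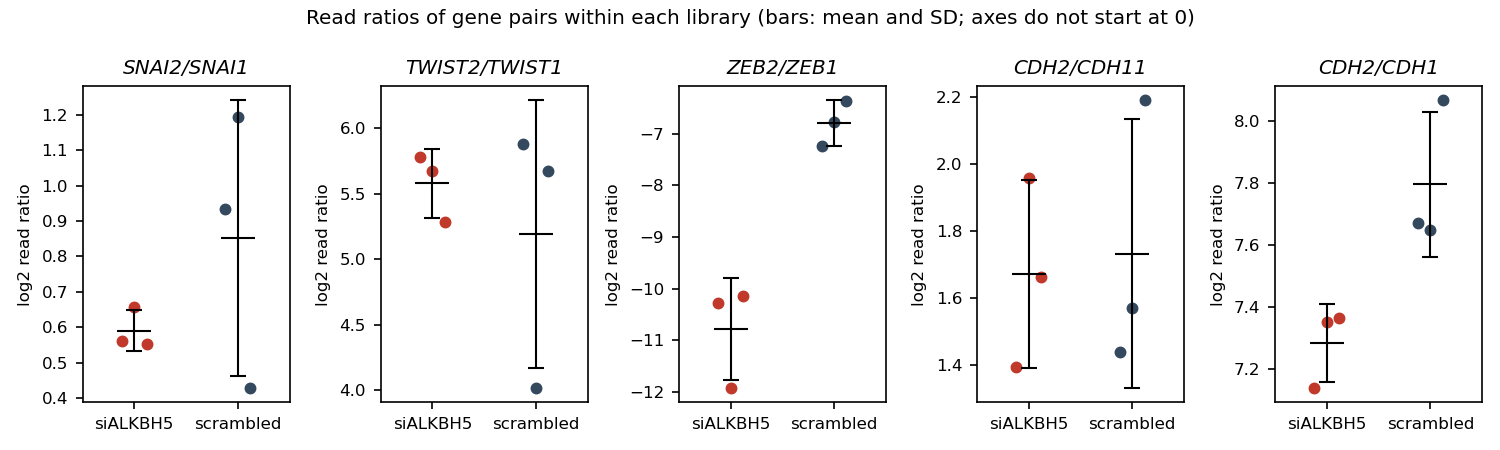
log2 of the read ratio of 5 gene pairs within each library (vertical axes, not starting at 0), with ALKBH5 siRNA left (red) and scrambled siRNA right (dark) and bars for mean and SD of 3 libraries. ZEB2/ZEB1 and CDH2/CDH1 are lower in every knockdown library than in any scrambled library, and the other 3 pairs overlap.

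Ratios of 2 genes within a library do not depend on how libraries are scaled, and 5 pairs were compared (0.5 reads added to each count, exact 2-sided permutation test, smallest possible p 0.1). The CDH2/CDH1 log2 ratio was 7.14, 7.35 and 7.36 with ALKBH5 siRNA, against 7.67, 7.65 and 8.07 with scrambled siRNA, a difference of −0.51 (exact p = 0.1, adjusted over the pairs 0.25). N-cadherin reads outnumbered E-cadherin reads by a wide margin in every library. The ZEB2/ZEB1 log2 ratio was −10.8 ± 0.99 with ALKBH5 siRNA and −6.79 ± 0.44 with scrambled siRNA (SD, n = 3 each; exact p = 0.1, adjusted 0.25), and its size rests on the reads added to the ZEB2 counts. The CDH2/CDH11 ratio differed by −0.06 (exact p = 0.8), SNAI2/SNAI1 by −0.26 (exact p = 0.4) and TWIST2/TWIST1 by 0.39 (exact p = 0.9). No pair could pass 0.05 in a design of 3 against 3.

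Other regulators of the transition went both ways. Of 24 tested genes, 6 were higher, 9 lower and 9 did not pass, against 30.8% of all tested genes in each direction. The median log2 fold change was −0.12, against 0.01 over all tested genes. TBX3, a T-box repressor, was at 33.5 ± 5.07 CPM with ALKBH5 siRNA and 83.8 ± 8.19 CPM with scrambled siRNA (SD, n = 3 each). SOX4, a factor of progenitor cells, fell by 2.14 on the log2 scale to 55.9 ± 14.9 CPM, against 247 ± 33.2 CPM with scrambled siRNA. SMAD3, which carries TGF-beta signals to the nucleus, fell by 0.59 (126 ± 2.37 CPM with ALKBH5 siRNA, 190.1 ± 4.19 CPM with scrambled siRNA).
Among the 6 that rose was SMAD2, the partner of SMAD3, at 140.4 ± 10.2 CPM with ALKBH5 siRNA and 98.2 ± 0.89 CPM with scrambled siRNA, which was singled out after its values were seen.
The 4 ID genes, whose proteins bind the E proteins that TWIST factors pair with and keep them from DNA, were all lower. ID2 fell by 2.20 on the log2 scale (10.3 ± 3.34 CPM with ALKBH5 siRNA, 47.3 ± 2.60 CPM with scrambled siRNA). ID1, ID3 and ID4, which were singled out after their values were seen, fell by 1.09, 1.97 and 2.14.

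Factors that hold the epithelial state were often too low to test. Of 18, 9 could be tested, and 2 were higher, 1 lower and 6 did not pass (median log2 fold change −0.0047). Over all tested genes 30.8% passed in each direction. FOXA2, a pioneer factor of endoderm, was at 11.3 ± 0.36 CPM with ALKBH5 siRNA and 5.29 ± 0.75 CPM with scrambled siRNA (log2 fold change 1.09, adjusted p = 6.0e-05). CDX2, an intestinal homeobox factor, rose by 0.82 and GRHL1, a grainyhead factor, fell by 0.69 on that scale, both at low levels.

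Genes for corepressors and for the turnover of SNAIL and ZEB proteins went both ways. Of 37 tested, 9 were higher and 19 lower, against 30.8% of all tested genes in each direction, with a median log2 fold change of −0.23. With single libraries left out, 7 to 10 were higher and 14 to 18 lower. The histone deacetylase HDAC2 was at 78.3 ± 5.79 CPM with ALKBH5 siRNA and 235 ± 3.88 CPM with scrambled siRNA. KDM1A, the histone demethylase that SNAI1 recruits, was at 78.2 ± 3.36 CPM with ALKBH5 siRNA and 189.5 ± 3.80 CPM with scrambled siRNA. SMARCA4, an ATPase of chromatin remodelling that ZEB1 can bind, fell 2.80-fold, and FBXW7, the substrate subunit of a ubiquitin ligase, fell 3.83-fold. MDM2, a ubiquitin ligase, rose by 0.91 on the log2 scale (233 ± 30.1 CPM with ALKBH5 siRNA, 124 ± 8.90 CPM with scrambled siRNA). CTBP2, a corepressor that ZEB proteins bind, rose by 0.63, and its relative CTBP1 fell by 0.61. Both were singled out after their values were seen.

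**Figure D4:**
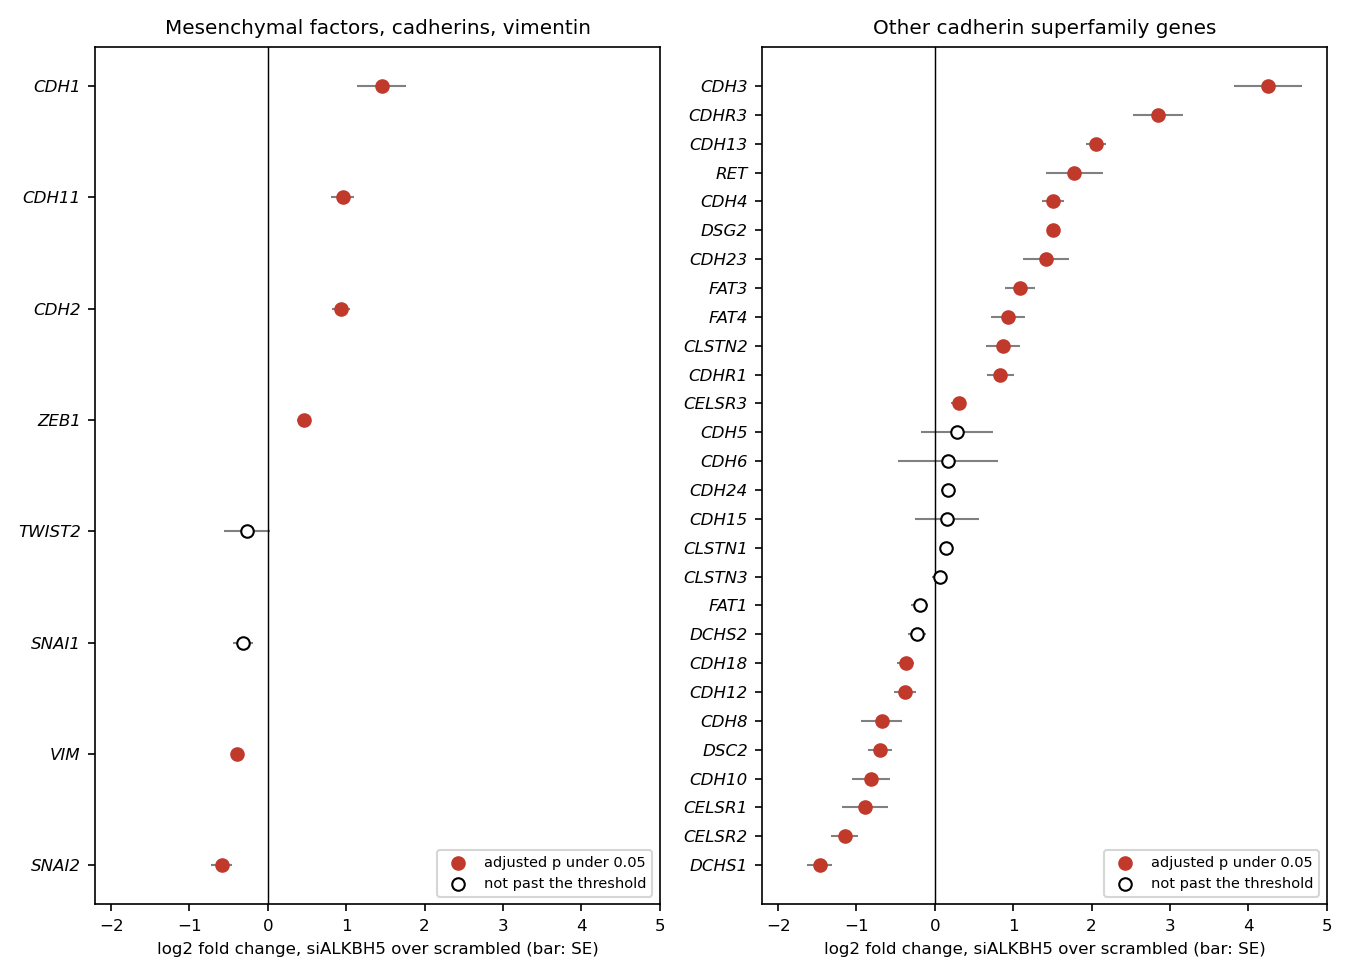
log2 fold change, ALKBH5 siRNA over scrambled siRNA (horizontal axis), with SE as bars, of the 8 tested genes (left) and of the 28 tested genes of the wider cadherin superfamily (right). Filled points passed an adjusted p of 0.05. CDH1, CDH2 and CDH11 lie between 0.93 and 1.45, and CDH3 reaches 4.25 in the right panel.

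In the wider cadherin superfamily 12 of 28 tested genes were higher and 8 lower, against 30.8% of all tested genes in each direction. The median log2 fold change was 0.17. Of the 28, 5 passed the filter through the knockdown libraries and not through the scrambled ones, so their place in the test came from the knockdown group. CDH5 and CDH15 are among these, with overlapping groups and log2 fold changes of 0.28 and 0.16 that did not pass. CDH13, a cadherin anchored in the membrane by lipid, was at 151, 202 and 187 CPM with ALKBH5 siRNA, against 37.7, 44.2 and 48.1 CPM with scrambled siRNA (log2 fold change 2.06, SE 0.12). CDH4, the retinal cadherin and a close relative of CDH2, was at 59.5, 73.1 and 90.8 CPM with ALKBH5 siRNA, against 24.1, 26.2 and 28.2 CPM with scrambled siRNA (log2 fold change 1.51). The desmosomal cadherin DSG2 was at 188.6, 205 and 197 CPM with ALKBH5 siRNA, against 70.9, 69.7 and 67.9 CPM with scrambled siRNA. None of these groups overlapped. CDH3, the placental cadherin whose gene lies beside CDH1, had 93 reads with ALKBH5 siRNA and 5 with scrambled siRNA in all. Its log2 fold change was 4.25 (SE 0.43), and it is 1 of the 5 that passed only through the knockdown libraries. Of the 8 lower genes, DCHS1 fell by 1.47 and CELSR2 by 1.15 on the log2 scale. Those were singled out after their values were seen. Among all 15 tested genes named CDH with a number, 7 were higher and 4 lower, against the same 30.8% in each direction.

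Junction partners of cadherins included genes that moved in opposite directions. Of 38 tested, 19 were higher and 11 lower, against 30.8% of all tested genes in each direction, with a median log2 fold change of 0.19. Beta-catenin (CTNNB1), which links cadherin tails to alpha-catenin, was at 138 ± 7.85 CPM with ALKBH5 siRNA and 419 ± 14.2 CPM with scrambled siRNA. VCL, the vinculin that ties catenins to actin, was at 1239 ± 72.4 CPM with ALKBH5 siRNA and 289 ± 8.98 CPM with scrambled siRNA. PTPRJ, a receptor phosphatase, rose 2.34-fold.

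Partners of vimentin and other intermediate filament genes were split. Of 25 tested, 8 were higher and 10 lower, against 30.8% of all tested genes in each direction (median log2 fold change 0.02). PLEC, the plectin that crosslinks vimentin to other filaments, was at 1949 ± 189 CPM with ALKBH5 siRNA and 768 ± 114 CPM with scrambled siRNA. FLNA, an actin crosslinker that binds vimentin, rose 2.53-fold. SYNM, a filament protein that assembles with vimentin, had 12, 6 and 8 reads with ALKBH5 siRNA, against 120, 155 and 106 reads with scrambled siRNA (log2 fold change −3.72). It passed the filter through the scrambled libraries alone, so it entered the test because it was higher there.

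Epithelial genes that the transition represses went both ways. Of 37 in the table, 14 were too low to test. Of the 23 tested genes, 11 were higher and 5 lower, against 30.8% of all tested genes in each direction, and the median log2 fold change was 0.63, against 0.01 over all tested genes. Of the 23, 2 passed the filter through the knockdown libraries alone and 2 through the scrambled libraries alone. CLDN1, a tight junction claudin, was at 34.8 ± 5.85 CPM with ALKBH5 siRNA and 4.72 ± 1.01 CPM with scrambled siRNA (log2 fold change 2.89). KRT7, a simple epithelial keratin, rose 6.95-fold and MUC1, a membrane mucin, 4.58-fold, with KRT7 at 21.9 CPM the highest library of either. CLDN4 rose by 1.07. Among the 5 that fell, the claudin CLDN7 had 6, 4 and 6 reads with ALKBH5 siRNA, against 47, 29 and 24 reads with scrambled siRNA (log2 fold change −2.46), and passed the filter through the scrambled libraries alone. The keratin KRT8 fell by 0.45 (261 ± 15.1 CPM with ALKBH5 siRNA, 356 ± 18.6 CPM with scrambled siRNA).

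**Figure D5:**
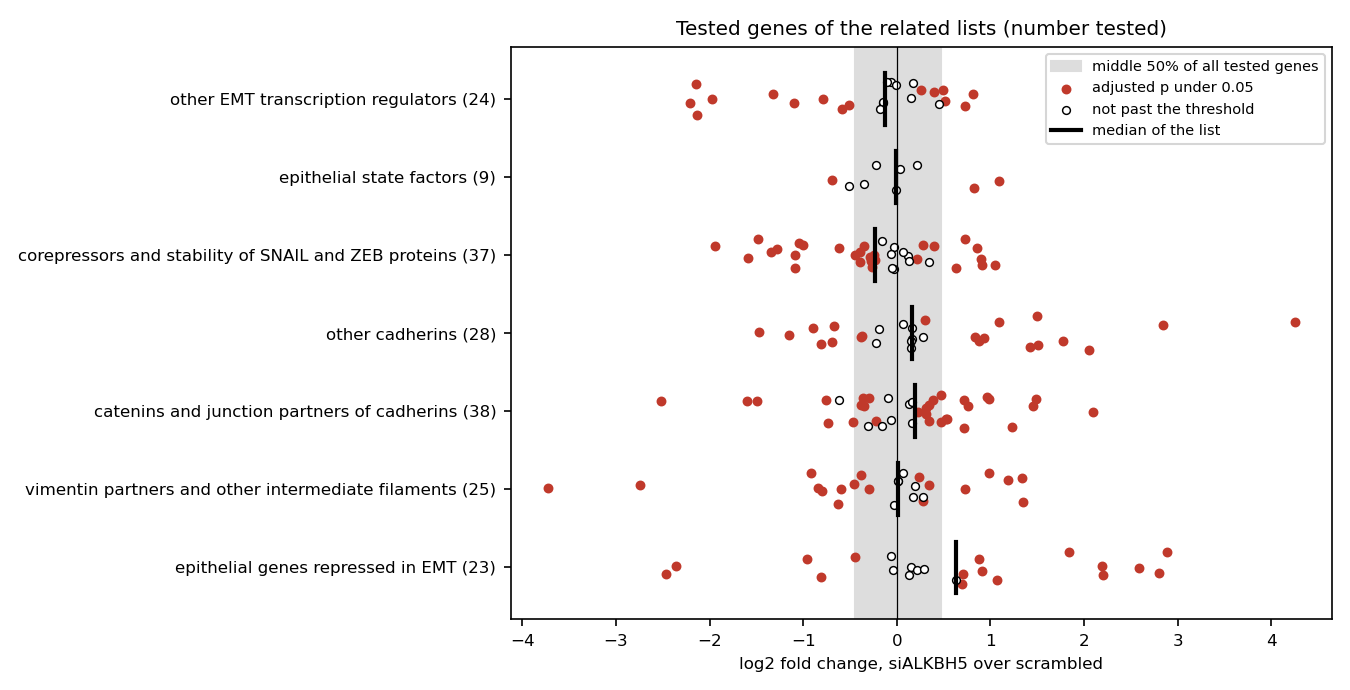
log2 fold change, ALKBH5 siRNA over scrambled siRNA (horizontal axis), of each tested gene in 7 related lists, with the number tested in brackets, list medians as black bars and the middle 50% of all tested genes shaded. Filled points passed an adjusted p of 0.05. Every list holds genes on both sides of 0, and list medians run from −0.23 to 0.63. The band is the spread of single genes and is no measure for a list's median.

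Among the 202 tested genes of these lists, the profile nearest to a member over the 6 libraries was found from centred log2 CPM, as the root mean square difference. For ZEB1 it was MLLT4 (afadin, a nectin partner), at 0.052, for CDH2 it was MDM2 at 0.068, and for VIM it was the keratin KRT8 at 0.097. For CDH1 it was PTPRJ at 0.123, for CDH11 FOXA2 at 0.126, for SNAI2 PRKD1 at 0.136 and for TWIST2 GRHL3 at 0.136. These are descriptions over 6 libraries in 2 groups. KRT8 counts are uncertain because the gene has many pseudogene copies.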

How the data were processed

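RNA-seq libraries of U2OS cells (3 with ALKBH5 siRNA, 3 with scrambled siRNA) were grouped by their labels. The authors deposited unnormalized counts of reads for each gene symbol. For making them, HTSeq, TopHat2, SAMtools, CASAVA 1.8.2 and hg19 are named in the submitters' processing notes. The annotation and strand setting were not given in the sources used here. Whether replicates were separate cultures is not in the labels. The p-values therefore reflect only differences among libraries, which may be technical. The 5 HTSeq summary entries were left out of library sizes and tests. Reads outside genes were 17.3% to 18.6% of uniquely placed reads with ALKBH5 siRNA and 15% to 15.5% with scrambled siRNA.

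Counts were filtered with filterByExpr (14504 genes kept), scaled with TMM and tested with edgeR 4.0.16 in R 4.3.3 (robust quasi-likelihood fit, group as single term, 2-sided, Benjamini-Hochberg over all tested genes, threshold 0.05). The SE was taken from the fold change and the F statistic. Named genes are the members, ALKBH5, up to 4 changed genes of smallest adjusted p per list, and the nearest profiles; some of these are not reported here. The members and lists were chosen with earlier results of these data known. Alternatives were RLE scaling, no scaling factor, other filters, DESeq2 1.42.0, limma-voom (limma 3.58.1), no robust moderation, a replicate block and each library left out.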

Additional observations from a re-analysis of the deposited data

How the results depend on the processing

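ALKBH5 and the 6 members that changed kept their direction and their call under all 14 alternatives of the gene test. The number of members changed was 6, and 6 to 8 under the alternatives. The number of members lower was 2, and ranged from 2 to 4 with single libraries left out, since ZEB2 then enters the test and SNAI1 passes without knockdown replicate 1. SNAI1 passed under 4 alternatives (no scaling factor, the replicate block at −0.31 with adjusted p 0.022, and without knockdown replicate 1 or scrambled replicate 2), and its log2 fold change ranged from −0.41 to −0.25 (adjusted p 0.022 to 0.165). ZEB2 passed in each of the 5 fits that admitted it (adjusted p 0.00027 to 0.0023). It reached the cutoff of the main filter in 2 scrambled libraries and 0 knockdown libraries. The fits with a library left out thus admitted ZEB2 through the scrambled group, in which it was higher. Its passing there adds no separate support. The log2 fold changes ranged over the alternatives from −0.74 to −0.50 for SNAI2, 0.39 to 0.52 for ZEB1, 1.35 to 1.56 for CDH1, 0.79 to 1.03 for CDH2, 0.77 to 1.06 for CDH11 and −0.45 to −0.32 for VIM. Over all genes 7878 to 9760 passed, against 8937. Among all 55 named genes tested, 13 of 769 values lost their call and 0 reversed.

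The TWIST2/TWIST1 log2 ratio difference of 0.39 turned to −0.17 with 5 reads added and ranged from −0.20 to 0.73 with single libraries left out, so it has no direction. The SNAI2/SNAI1 difference ranged from −0.47 without scrambled replicate 3 to −0.09 without scrambled replicate 2. The CDH2/CDH11 difference ranged from −0.21 to 0.17 with single libraries left out. With 5 reads added, the ZEB2/ZEB1 difference was −1.97 in place of −3.99 and the CDH2/CDH1 difference −0.24 in place of −0.51; these sizes follow from the reads added to low counts. With the replicate number as a block 9760 genes and 7 members passed. Same-numbered libraries deviated together with correlations over genes of 0.331, 0.0578 and 0.351. The other combinations ranged from −0.367 to 0.0768, the latter for scrambled replicate 2 with knockdown replicate 1. These values do not decide whether the libraries were paired. The labels state no pairing, so the main fit has no block. Levels of CDH1, TWIST2, ZEB2 and TWIST1 are limited by depth.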

Other observations

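Markers of blood and vessel cells, which no comparison above rests on, are given by their values. LCP1, an actin-bundling protein of leukocytes, was at 88.7, 125 and 190.4 CPM with ALKBH5 siRNA, against 16.1, 19.1 and 19.6 CPM with scrambled siRNA (log2 fold change 2.89, adjusted p = 5.9e-05). The leukocyte phosphatase gene PTPRC fell to 0.619 ± 0.26 CPM with ALKBH5 siRNA, against 1.31 ± 0.39 CPM with scrambled siRNA, but lost its call when single libraries were left out. CORO1A fell by 0.48 on the log2 scale (adjusted p = 0.033) and lost its call in the same way. The remaining leukocyte markers tested, CD68 and CSF1R, did not pass, with log2 fold changes of −0.17 and 0.70. The median of the 5 leukocyte markers tested was −0.17. VWF, the von Willebrand factor, had 27, 9 and 14 reads with ALKBH5 siRNA, against 156, 121 and 87 reads with scrambled siRNA. The endothelial receptor KDR had 2, 2 and 0 reads with ALKBH5 siRNA, against 25, 22 and 20 reads with scrambled siRNA. KDR passed the filter through the scrambled libraries alone. PTPRC and VWF likewise reached the cutoff in all 3 libraries only with scrambled siRNA, in which they were higher. The other 3 endothelial markers tested (CDH5, TEK and ERG) did not pass, with log2 fold changes of 0.28, 0.74 and 0.30, and the median of the 5 was 0.28.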
